A study of Mus musculus with 6 samples.

Results

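The genes described are 9 macrophage and monocyte genes, Csf1r, Lyz2, C1qa, C1qb, C1qc, Apoe, Cd68, Adgre1 and Arg1, taken by symbol from a table of 57180 genes, where each was listed once. RNA was sequenced from lymphocytes isolated out of tumors of mice that carried Hepa1-6, a mouse hepatoma cell line. All mice received by tail vein the TREND delivery system with plasmids for CasRx, an RNA-guided nuclease that cuts RNA. In 3 libraries (Mock sgRNA) the plasmids carried a mock guide. In the other 3 (SLC43A2 sgRNA) they carried one directed at SLC43A2, which encodes a membrane carrier for methionine and other large neutral amino acids. The cells in which the plasmids act, mouse strain, age and sex, and any pooling of animals are not stated in the labels, nor do they say that replicates are separate animals, so p-values measure the spread between these libraries. The comparison asks how these genes differ in the RNA of the isolated cells after the guide against SLC43A2. Slc43a2 itself stood at 6.68, 4.18 and 4.79 TPM under the mock guide and 3.5, 2.4 and 4.15 TPM under its own guide, a difference that did not pass the test (limma adjusted p = 0.11).

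Macrophages and monocytes are phagocytes that live alongside lymphocytes in tumors. They depend on signaling through the receptor encoded by Csf1r, and they make complement C1q, lysozyme and apolipoprotein E. C1q is assembled from the products of 3 neighboring genes and starts the classical complement pathway when it binds antibody or dying cells. Lymphocytes are not the usual source of these transcripts, so in a lymphocyte preparation they are read as markers of phagocytes. Lyz2 does not separate macrophages and monocytes from neutrophils, and Cd68, Apoe and Arg1 are also made by other cells.

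The C1q genes lie side by side on the minus strand of GRCm38 chromosome 4, in the order C1qb, C1qc and C1qa within 136880129 to 136898803. The RefSeq promoter table for GRCm38.p6 matched 5 of the 9 genes, C1qb, C1qc, Apoe, Lyz2 and Cd68. The 250 bases before the RefSeq start site are shown for a pair of C1q genes that moved together. They are also shown for Lyz2, the most abundant of the 9, and for Cd68, which fell least. In GENCODE M21, C1qc reaches to 136893065 and Lyz2 to 117282321, so part of both windows lies inside the gene annotated there. Capitals mark GAGGAA or its reverse complement, the core that PU.1, a lineage factor of myeloid cells, is known to bind.
C1qb, chr4:136886201-136886450, minus strand: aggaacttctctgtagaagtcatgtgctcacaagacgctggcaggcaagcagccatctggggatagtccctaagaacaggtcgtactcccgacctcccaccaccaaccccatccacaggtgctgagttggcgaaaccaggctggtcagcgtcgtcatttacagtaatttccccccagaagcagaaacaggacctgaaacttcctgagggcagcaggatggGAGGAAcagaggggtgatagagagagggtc
C1qc, chr4:136892915-136893164, minus strand: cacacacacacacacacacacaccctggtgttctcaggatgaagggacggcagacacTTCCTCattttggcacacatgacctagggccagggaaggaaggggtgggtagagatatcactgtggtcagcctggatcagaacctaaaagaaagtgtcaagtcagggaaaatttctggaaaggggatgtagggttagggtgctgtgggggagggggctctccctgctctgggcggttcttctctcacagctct
Lyz2, chr10:117282273-117282522, minus strand: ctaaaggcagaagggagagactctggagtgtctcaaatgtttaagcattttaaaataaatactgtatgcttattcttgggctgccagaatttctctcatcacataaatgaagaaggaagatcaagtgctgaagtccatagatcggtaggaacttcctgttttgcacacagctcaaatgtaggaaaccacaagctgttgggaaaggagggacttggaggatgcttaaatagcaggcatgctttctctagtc
Cd68, chr11:69666171-69666420, minus strand: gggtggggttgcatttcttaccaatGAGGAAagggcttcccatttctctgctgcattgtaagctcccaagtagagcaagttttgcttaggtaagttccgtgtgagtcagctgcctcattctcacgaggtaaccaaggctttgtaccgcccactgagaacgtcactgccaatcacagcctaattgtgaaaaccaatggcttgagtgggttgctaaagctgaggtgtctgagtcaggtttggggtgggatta
The core was found once in C1qb, starting 30 bases before the start site, once in C1qc on the opposite strand, starting 193 bases before, and once in Cd68, starting 225 bases before. These letters were not in the Lyz2 window, and 23.3% of the 32851 promoters in the table hold them on either strand. A C/EBP motif, TTGCNNAA, was found in Cd68 alone among the 4 printed promoters (9.6% of all promoters), and neither the MAF motif core TGCTGAC (3.8%) nor the hypoxia element core ACGTG (16.6%) was in any of the 4. A match describes letters and not a bound site.

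With the guide against SLC43A2, 8 of the 9 genes fell and 1, Arg1, rose, and in all 9 the SLC43A2 sgRNA and Mock sgRNA libraries did not overlap. Among the 13759 genes tested, 22.2% fell and 22.8% rose (limma on log2(TPM + 1), adjusted p under 0.05), 45.1% in all, and the groups did not overlap in 28.3% with lower and 28.7% with higher values. TPM corrects reads for gene length and scales each library to the same sum, so levels can be compared between genes. All 9 genes passed the filter of a mean of 1 TPM over the 6 libraries. Adgre1 passed only through the Mock sgRNA group and Arg1 only through the SLC43A2 sgRNA group, so for these a difference was built into passing. The median log2 change of the 9 was -3.11, against 0.03 over all tested genes, and the summed share of the 9 in all TPM went from 0.0729% with the mock guide to 0.00784% with the SLC43A2 guide. In bulk RNA, fewer cells of a type and less RNA per cell cannot be told apart.

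**Figure D1:**
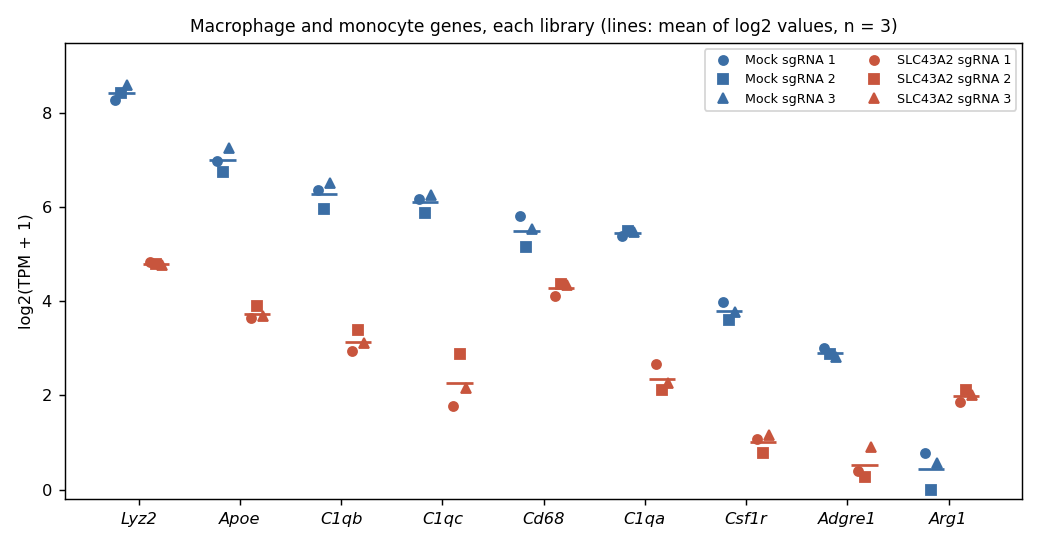
Level of each gene as log2(TPM + 1) in the 3 Mock sgRNA (blue) and 3 SLC43A2 sgRNA libraries (red), with marker shape for the replicate number and a line at the mean. The red points lie below the blue points for 8 genes and above them for Arg1.

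The 3 chains of C1q fell together. C1qa, the A chain, stood at 41.1, 44.0 and 43.7 TPM with the mock guide (replicates 1, 2 and 3) and dropped to 5.33, 3.36 and 3.79 TPM with the SLC43A2 guide. C1qb, the B chain, stood at 81.9, 61.7 and 90.7 TPM and at 6.66, 9.43 and 7.6 TPM. C1qc, the C chain, stood at 71.0, 58.2 and 75.3 TPM and at 2.4, 6.37 and 3.47 TPM. Every SLC43A2 sgRNA library was low for all 3 chains, and replicate 2 was the highest of its group for C1qb and C1qc and the lowest for C1qa. The log2 changes were -3.11 (SE 0.17) for C1qa, -3.15 (SE 0.19) for C1qb and -3.84 (SE 0.29) for C1qc, with limma adjusted p of 4.4e-05, 7.1e-05 and 0.00015. C1qc was the most variable of the 3 in the SLC43A2 sgRNA libraries, at 4.08 ± 2.05 TPM (SD, n = 3).

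Other complement genes went both ways. Of 29 other complement genes, regulators and receptors, 9 were tested, of which 2 fell, 3 rose and 4 did not pass (median log2 change 0.38). Over all tested genes, 22.2% fell and 22.8% rose, so these few calls do not set the list apart. Among the complement calls, Cr2 and Cfb passed the filter only through the group in which they are high. The genes of the proteases that join C1q, C1ra, C1rb, C1s1 and C1s2, were at 0.19 TPM or less in every library, and C1ra was above 0 in all 6. Cfp, which encodes properdin, the stabilizer of the alternative pathway, fell from 29.0 ± 6.93 to 3.50 ± 0.419 TPM, and Cr2, the complement receptor of B cells, from 16.2 ± 3.37 to 0.0167 ± 0.0115 TPM (SD, n = 3 each). Cfb, factor B of the alternative pathway, rose from 0.77 ± 0.125 to 7.81 ± 2.93 TPM (SD, n = 3 each). C2, which the classical pathway cleaves, rose by 0.94 (limma adjusted p = 0.027), a call lost in 6 of 16 alternatives, with adjusted p up to 0.0765. C1qbp, a mitochondrial protein named for binding C1q, rose by 0.68. Without Mock sgRNA replicate 3, 5 complement genes rose.

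The receptors of the macrophage surface fell as well. Csf1r, the receptor for CSF1 and interleukin-34, stood at 14.8, 11.2 and 12.8 TPM with the mock guide, against 1.11, 0.71 and 1.23 TPM with the SLC43A2 guide. Adgre1, the gene of the F4/80 antigen used to sort mouse macrophages, stood at 7.01, 6.34 and 6.04 TPM and at 0.31, 0.2 and 0.88 TPM. The groups did not overlap for either gene, and SLC43A2 sgRNA replicate 3 was the highest of its group for both. The log2 changes were -2.79 (SE 0.19, limma adjusted p = 9.4e-05) for Csf1r and -2.38 (SE 0.23, limma adjusted p = 0.00043) for Adgre1. At such levels the pseudocount of 1 shrinks a change: with 0.1 the log2 changes were -3.57 and -3.73. In GENCODE M21, exons of Csf1r (chromosome 18, 61100598 to 61132149, plus strand) share 873 bases, 15.1% of their length, with Hmgxb3 on the opposite strand. Hmgxb3 rose from 4.09 ± 0.805 to 6.61 ± 0.423 TPM (SD, n = 3 each), so reads of that stretch cannot be assigned without strand.

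Of 26 other genes of growth factor signaling and myeloid transcription control around Csf1r, 20 were tested, of which 12 fell, 4 rose and 4 did not pass (median log2 change -0.89). Over all tested genes, 22.2% fell and 22.8% rose. Of the 12 that fell, 4 passed the filter only through the Mock sgRNA group. Among the ligands, Csf1 fell from 2.31 ± 0.466 to 0.83 ± 0.266 TPM (limma adjusted p = 0.021), which did not pass in 6 of 16 alternatives (adjusted p up to 0.191), and Il34 was listed at 0 in 5 libraries and at 0.13 TPM in the other. Csf2, the gene of GM-CSF, which activated T cells make, rose from 1.16 ± 1.01 to 18.9 ± 4.64 TPM. The adaptors that carry signals of activating receptors fell, Tyrobp (DAP12) from 204 ± 21.9 to 28.1 ± 8.02 TPM and Fcer1g from 213 ± 11.1 to 44.1 ± 5.81 TPM. NK cells also use both adaptors. Transcription factors went both ways. Maf fell from 11.9 ± 2.26 to 1.46 ± 0.272 TPM, and Spi1, the gene of PU.1, fell by 1.09 on the log2 scale, from 7.77 ± 1.43 to 3.11 ± 0.555 TPM. Irf8, which myeloid cells, B cells and activated T cells express, rose from 73.9 ± 16.2 to 288 ± 51.2 TPM, and Nr4a1, an early response gene also used as a monocyte factor, from 20.8 ± 6.68 to 74.7 ± 12.4 TPM (SD, n = 3 each). Csf1, Il34 and Spi1 were chosen after their values were seen.

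Lyz2 and Cd68, the genes of an antibacterial enzyme and of a lysosomal membrane glycoprotein of phagocytes, fell by unequal amounts. Lyz2 stood at 309, 345 and 386 TPM with the mock guide, against 27.5, 26.9 and 26.4 TPM with the SLC43A2 guide, a log2 change of -3.63 (SE 0.12; limma adjusted p = 8.2e-06). Cd68 stood at 55.3, 34.6 and 45.7 TPM and at 16.3, 19.6 and 19.5 TPM, a log2 change of -1.23 (SE 0.19; limma adjusted p = 0.003). The SLC43A2 sgRNA libraries kept 7.77% of the Mock sgRNA mean for Lyz2 and 40.8% for Cd68. The other falling genes kept between 5.98% (C1qc) and 10.1% (C1qb). Lysosomal genes as a list did not follow: of 21 genes, 20 were tested, of which 6 fell, 6 rose and 8 did not pass (median 0.09). Over all tested genes, 22.2% fell and 22.8% rose (median 0.03). The cathepsin genes Ctsh and Ctss, which act in antigen presentation, fell, with log2 changes of -1.88 and -1.58, and Grn, which encodes progranulin, fell by 0.82 (limma adjusted p = 0.035; a call lost in 6 of 17 alternatives, adjusted p up to 0.108). The cathepsin gene Ctsz rose by 1.08, and the membrane protein genes Lamp1 and Cd63 rose by 1.02 and 0.97. Without Mock sgRNA replicate 1 or SLC43A2 sgRNA replicate 3, 2 lysosomal genes fell, and without Mock sgRNA replicate 3 or SLC43A2 sgRNA replicate 2, 3 fell.

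Apoe, the apolipoprotein that carries cholesterol out of macrophages, stood at 126, 106 and 153 TPM with the mock guide, against 11.5, 13.9 and 11.9 TPM with the SLC43A2 guide. All 3 SLC43A2 sgRNA values were under every Mock sgRNA value (log2 change -3.26, SE 0.17, limma adjusted p = 3.4e-05). Its neighbors in the same apolipoprotein gene cluster fell too, Apoc1 from 7.17, 11.2 and 8.91 TPM to values listed at 0, 0.62 and 0.67 TPM, and Apoc2 from 6.57 ± 0.555 to 0.687 ± 0.577 TPM (SD, n = 3 each). Hepatocytes are the main source of Apoe in the body and also express Arg1, and the tumor line is a hepatoma. Of 22 hepatocyte genes, 15 were listed at 0 in all 6 libraries, among them Alb and Ttr, and Apoa1 was at most 0.07 TPM. Other genes of that list were present. Afp, a fetal liver gene that hepatomas also make, was at 4.39 to 7.31 TPM with the mock guide and 2.62 to 4.48 TPM with the SLC43A2 guide, and did not pass (limma adjusted p = 0.161). Trf, the transferrin gene, fell from 21.8 ± 7.85 to 1.86 ± 0.157 TPM, and Hp, the haptoglobin gene, from 7.32 ± 0.920 to 1.23 ± 0.161 TPM (SD, n = 3 each). Ass1, also in the arginine list, rose from 10.5 ± 3.25 to 20.8 ± 5.72 TPM (SD, n = 3 each; limma adjusted p = 0.036). It was the most abundant of the 22 genes with the SLC43A2 guide. Of the 5 genes tested, 2 fell, 1 rose and 2 did not pass. The summed level of the 22 genes was 39.3 to 52.8 TPM with the mock guide and 23.3 to 35.2 TPM with the SLC43A2 guide. The part of hepatocyte or hepatoma RNA in the levels of Apoe and Arg1 was not tested. In the lipid handling list, 20 of 25 genes were tested, of which 11 fell, 4 rose and 5 did not pass (median -0.62). Over all tested genes, 22.2% fell and 22.8% rose. Of the 11 that fell, 7 passed the filter only through the Mock sgRNA group, Apoc1 and Apoc2 among them. Abcg1, a cholesterol exporter, fell by 2.11. The scavenger receptor gene Scarb1 rose by 1.32, the fatty acid binding protein gene Fabp5 by 0.93 and Nr1h2, which encodes the sterol sensor LXR beta, by 0.58. The calls of Scarb1 and Nr1h2 were lost in 5 and 7 of 17 alternatives (adjusted p up to 0.0863 and 0.106). Without Mock sgRNA replicate 1 or SLC43A2 sgRNA replicate 1, 6 lipid genes fell, and without SLC43A2 sgRNA replicate 2 or 3, 7 fell. Without Mock sgRNA replicate 2 or SLC43A2 sgRNA replicate 1 or 3, 2 rose.

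Arg1, arginase 1, breaks down arginine and marks alternatively activated and tumor macrophages. It was at 0.7, 0 and 0.48 TPM with the mock guide (replicates 1, 2 and 3) and reached 2.62, 3.33 and 3.04 TPM with the SLC43A2 guide. It was the least abundant of the 9 genes in the Mock sgRNA group and stood above Csf1r and Adgre1 in the SLC43A2 sgRNA group. The log2 change was 1.55 (SE 0.26, limma adjusted p = 0.0041), and 3.10 with a pseudocount of 0.1. Other genes of alternative activation did not rise with it: the mannose receptor gene Mrc1 fell from 7.87 ± 1.86 to 0.0767 ± 0.0586 TPM, Chil3 from 14.3 ± 1.99 to 4.75 ± 1.34 TPM and the lipid sensor gene Pparg from 1.94 ± 0.352 to 0.44 ± 0.0529 TPM (SD, n = 3 each). Retnla was listed at 0 in all 6 libraries. Pparg lost its call under quantile normalization (limma adjusted p = 0.0998). Of the list of 20 inducers and partners of Arg1, which holds these 4 genes, 16 were tested, of which 8 rose, 3 fell and 5 did not pass (median 0.66). Over all tested genes, 22.8% rose and 22.2% fell. Mrc1 and Pparg passed the filter only through the Mock sgRNA group. Il4, the cytokine that induces Arg1 in macrophages, rose from 7.21 ± 1.44 to 23.3 ± 2.76 TPM, Hif1a, the hypoxia factor, from 56.7 to 78.2 up to 193 to 269 TPM, and the transcription factor gene Irf4 from 28.6 ± 6.24 to 98.0 ± 14.7 TPM.

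Around arginase, the arginine and polyamine list had 8 of 13 tested genes higher and 1 lower, out of 17 listed (median 0.76). Over all tested genes, 22.8% were higher and 22.2% lower. Pycr1, which makes proline, rose by 1.84, Odc1, which turns the ornithine that arginase releases into putrescine, by 1.68, and Aldh18a1, an earlier step to proline, by 1.14. Gatm, which uses arginine for creatine and passed the filter only through the Mock sgRNA group, fell by 0.78 (limma adjusted p = 0.015), but did not pass when SLC43A2 sgRNA replicate 3 was left out (adjusted p = 0.0535) and under quantile normalization (adjusted p = 0.157). The related genes Arg2 and Nos2 were under the filter. Arg2, the mitochondrial arginase, was at 0.36 to 0.51 TPM in Mock sgRNA and 0.82 to 1.58 TPM in SLC43A2 sgRNA. Nos2, which makes nitric oxide from arginine, was at 0 to 0.06 and 0.36 to 0.83 TPM. Neither was tested, and both were named after their values were seen. HIF1 target genes rose in 13 of 14 tested cases and fell in none, out of 16 listed (median 1.51; limma), against the 22.8% of all tested genes that rose. Slc16a3, the lactate exporter, rose from 4.22 ± 1.00 to 45.9 ± 20.8 TPM, Bnip3, a mitophagy gene, by 2.96 and Egln3, an oxygen sensor, by 2.01. Cells other than macrophages express these genes, and the source of Arg1 was not tested.

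**Figure D2:**
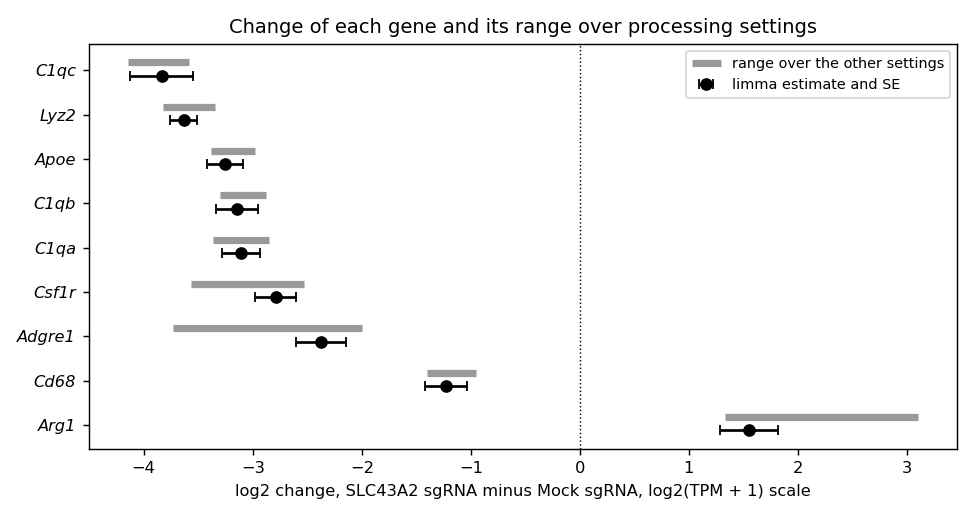
Log2 change (SLC43A2 sgRNA minus Mock sgRNA) of each gene with its SE in black, and in gray the range over the other processing settings. Arg1 is the 1 gene to the right of 0, and Cd68 lies closest to 0 among the 8 that fell.

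Ratios between genes within a library do not depend on the library total. The C1qb to C1qa ratio was 1.99, 1.40 and 2.07 in the Mock sgRNA libraries and 1.25, 2.81 and 2.01 in the SLC43A2 sgRNA libraries. The Apoe to C1qa ratio was 2.99 ± 0.543 and 3.14 ± 0.990, the C1qc to C1qa ratio 1.59 ± 0.232 and 1.09 ± 0.738, and the Csf1r to Adgre1 ratio 2.00 ± 0.197 and 2.84 ± 1.25 (SD, n = 3 each). The C1qc to C1qa ratio was 0.450, 1.90 and 0.916 in the SLC43A2 sgRNA libraries, and its group mean over that of the Mock sgRNA group was 0.683, and 0.429 without SLC43A2 sgRNA replicate 2. These 4 ratios overlapped between the groups, with exact two-sided permutation p of 0.9, 0.9, 0.4 and 0.4 for C1qb, Apoe, C1qc and Csf1r, and their spread was wider in the SLC43A2 sgRNA libraries. The Cd68 to Lyz2 ratio was 0.179, 0.101 and 0.119 in the Mock sgRNA and 0.591, 0.727 and 0.739 in the SLC43A2 sgRNA libraries, 5.17-fold higher. The Arg1 to Lyz2 ratio was 0.00226, 0 and 0.00124, and then 0.0953, 0.124 and 0.115. The last pair of ratios did not overlap between the groups (exact permutation p = 0.1, the smallest that 3 against 3 can give, and 0.3 after Benjamini-Hochberg adjustment over the 6 ratios).

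**Figure D3:**
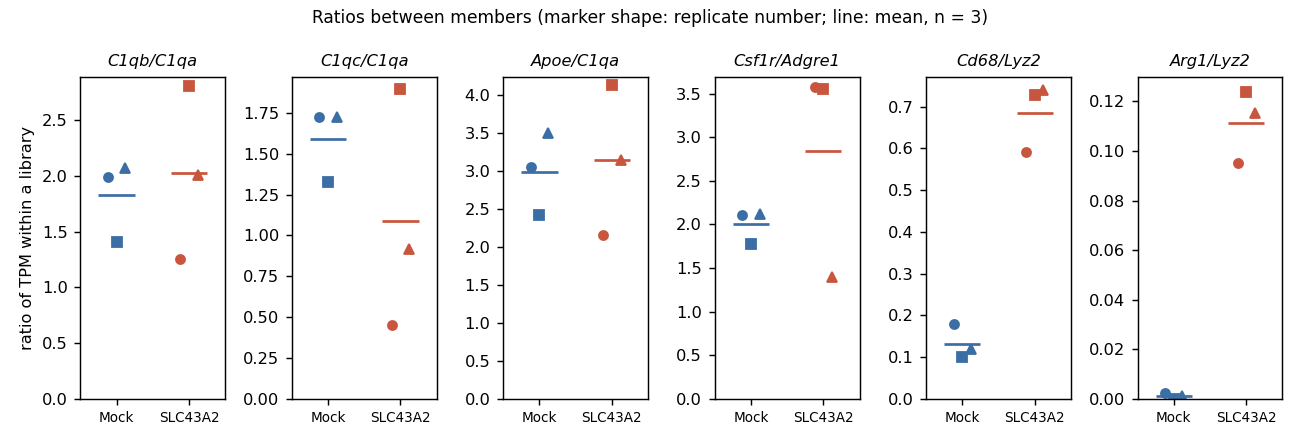
Ratio of TPM between 2 genes within each library, by group, with a line at the mean of 3 libraries and each panel on its own linear axis from 0. The first 4 ratios overlap between the groups, and the Cd68 to Lyz2 and Arg1 to Lyz2 ratios are higher in every SLC43A2 sgRNA library.

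The order of levels changed accordingly. In the Mock sgRNA libraries it ran Lyz2, Apoe, C1qb, C1qc, Cd68, C1qa, Csf1r, Adgre1 and Arg1, and the neighbors C1qb and C1qc, and Cd68 and C1qa, overlapped across libraries. In the SLC43A2 sgRNA libraries it ran Lyz2, Cd68, Apoe, C1qb, C1qa, C1qc, Arg1, Csf1r and Adgre1, with overlap between C1qa and C1qc, between C1qc and Arg1, and between Csf1r and Adgre1. Cd68 moved from place 5 to place 2 and Arg1 from place 9 to place 7.

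For each member, the genes whose centered log2 profiles over the 6 libraries lay closest were ranked by distance on the log2 scale. Closest to Csf1r were H2-Ob (distance 0.17), a class II gene known from B cells, and Myo1f (0.23). Closest to C1qa were the growth factor gene Igf1 (0.29), Mef2c (0.34) and Capn3 (0.36), and closest to C1qb Cd7 (0.24), Chil5 (0.28) and the class II invariant chain gene Cd74 (0.31). Apoe was nearest to Cd7 (0.17), H2-Aa (0.30) and Ly86 (0.32), and Lyz2 to the B cell gene Ms4a1 (0.36). C1qc was nearest to Ly6d (0.54), Adgre1 to Pou6f1 (0.28) and Cd68 to Rab11fip4 (0.17). Arg1 was nearest to Il4 (0.21), followed by Dusp22 and Mir22hg (0.33 each). With 2 groups and 6 libraries, these distances mainly rank genes by the size of their difference between the groups.

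Most other macrophage and monocyte genes fell with the 8. Of 48 listed, 33 were tested, of which 26 fell, 4 rose and 3 did not pass (median -1.53). Over all tested genes, 22.2% fell and 22.8% rose. Among the 26, 10 had an SLC43A2 sgRNA mean under 1 TPM and passed the filter only through the Mock sgRNA group, so that their fall was built into being tested, Mrc1, Spp1, Treml4 and Adgre4 among them. Mrc1 changed by -3.02 on the log2 scale, Spp1, the osteopontin gene of tumor macrophages, by -2.89 and Treml4, a receptor of patrolling monocytes, by -2.70. Adgre4, the relative of Adgre1 and chosen after its values were seen, fell from 5.86 ± 0.315 to 0.137 ± 0.0777 TPM (SD, n = 3 each). The genes that rose were Clec7a (1.02), the beta-glucan receptor, Lgals3 (0.80), a galectin, Pf4 (0.76), a platelet chemokine, and Plac8 (0.41), which lymphocytes also express. Pf4 lost its call in 4 of 17 alternatives (limma adjusted p up to 0.0636), and without SLC43A2 sgRNA replicate 1, 2 genes of the list rose. Cd14, the lipopolysaccharide co-receptor, stood at 3.22 ± 0.0987 and 3.51 ± 0.119 TPM and did not pass (limma adjusted p = 0.62). Itgam, the gene of CD11b, was at 0.26 to 0.64 TPM in the Mock sgRNA and 0.1 to 0.18 TPM in the SLC43A2 sgRNA libraries, Trem2 was at most 0.65 TPM, and Folr2 was listed at 0 throughout. Plac8, Cd14, Itgam, Trem2 and Folr2 were chosen after their values were seen.

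**Figure D4:**
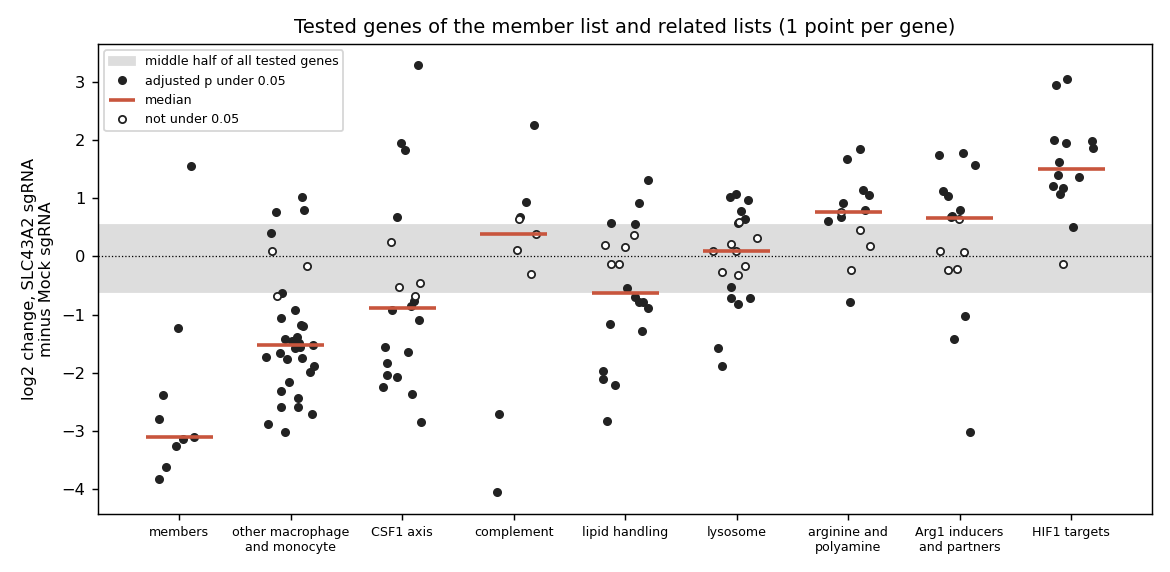
Log2 change of each tested gene in the 9-gene list and in 8 related lists, filled where the limma adjusted p is under 0.05, with a red line at each list's median and a gray band for the middle of all tested genes (25th to 75th percentile). Among the lists shown, which leave out other cell types, the 9 genes have the lowest median, -3.11. Other macrophage and monocyte genes lie at -1.53, and HIF1 targets lie highest, at 1.51.

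The libraries were lymphocyte libraries in both groups, and other cell types moved too. The 15 T cell genes summed to 10111 to 11583 TPM in the Mock sgRNA and 8818 to 9077 TPM in the SLC43A2 sgRNA libraries, against 667 to 813 and 73.6 to 83.8 TPM for the 9 macrophage and monocyte genes. Summed levels fell without overlap from 318 to 405 down to 25.4 to 26.0 TPM for 10 B cell genes, of which 9 of 9 tested fell, and from 475 to 662 down to 111 to 132 TPM for 14 neutrophil genes, of which 10 of 11 tested fell. Among the marker lists plotted, the largest fall in summed level was that of 6 plasma cell genes, from 19315 to 20028 down to 566 to 693 TPM, of which 5 of 6 tested fell. The summed level of 10 erythroid genes went from 1014 to 1168 down to 45.0 to 54.3 TPM, and 8 of 9 tested fell. NK cell genes fell in 9 of 10 tested cases and dendritic cell genes in 4 of 8, where 2 rose. Over all tested genes, 22.2% fell and 22.8% rose. Median log2 changes were -4.03 for erythroid, -3.19 for plasma cell and -3.01 for B cell genes, against -3.11 for the 9 genes. They were -2.04 for neutrophil, -1.15 for NK cell and -0.36 for dendritic cell genes, so a fall of this size was not particular to the 9. Of the genes that fell, 5 B cell, 4 neutrophil, 2 plasma cell, 3 erythroid, 3 NK cell and 2 dendritic cell genes passed the filter only through the Mock sgRNA group. Of the defining neutrophil genes, S100a8 fell from 235 ± 55.5 to 48.6 ± 8.35 TPM (SD, n = 3 each). S100a9 fell from 212 ± 51.8 to 49.9 ± 3.57 TPM (SD, n = 3 each), and Ly6g was at most 0.52 TPM. In the ILC2 list, whose sums overlapped, 6 of 11 genes were tested: Klrg1 fell, Il5 rose and 4 did not pass. The defining ILC2 genes were higher in every SLC43A2 sgRNA library. Il5 went from 0.0167 ± 0.0289 to 3.52 ± 0.357 TPM (limma adjusted p = 0.00043), passing the filter only through that group. Il13 went from 0 to between 0.66 and 1.56 TPM, and Il1rl1 from 0.09 to 0.44 up to 0.54 to 1.42 TPM, both not tested. The Y-linked Eif2s3y went from 51.4 ± 5.39 to 1.03 ± 0.297 TPM. Ddx3y, Uty and Kdm5d, also Y-linked, fell too, and passed the filter only through the Mock sgRNA group. The X-linked Xist and Tsix were present in both groups and rose. Xist was at 3.18 to 5.4 TPM in the Mock sgRNA and 9.64 to 11.9 TPM in the SLC43A2 sgRNA libraries. Tsix was at 2.85 to 3.19 and 8.25 to 9.64 TPM. A difference in the sex of the cells, or in a mixture of sexes, and the guide cannot be told apart. The part that plasma cells, B cells, neutrophils, NK cells, red blood cells or sex play in the falls of the 8 genes was not tested. The labels' protocol speaks of retinas; the 10 photoreceptor genes summed to 5.92 to 10.6 TPM in the Mock sgRNA and 5.41 to 12.5 TPM in the SLC43A2 sgRNA libraries, and the microglial gene Sall1 was listed at 0 in every library. Per 100 TPM of T cell receptor constant region and CD3 genes, the 9 genes summed to 8.80 ± 0.447 TPM in the Mock sgRNA and 1.16 ± 0.0318 TPM in the SLC43A2 sgRNA libraries (SD, n = 3 each). Scaling all genes to those T cell transcripts moved the median of all tested genes from 0.03 to 0.27 and the share of calls that were higher from 50.6% to 67.9%; the 9 kept their directions, with Cd68 at -0.95 and Lyz2 at -3.35.

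**Figure D5:**
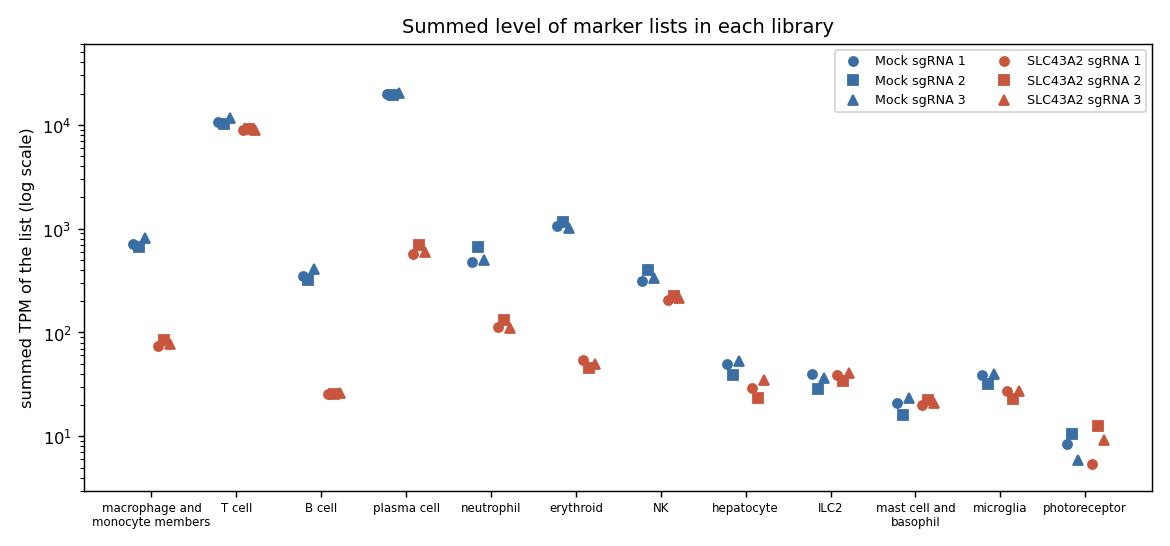
Summed TPM of the 9 macrophage and monocyte genes and of marker lists of other cell types in each library, on a log axis. The 9 genes and the T cell, B cell, plasma cell, neutrophil, erythroid, NK, hepatocyte and microglia lists are lower in every SLC43A2 sgRNA library, while the mast cell and basophil, ILC2 and photoreceptor lists overlap between the groups.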

How the data were processed

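RNA-seq of 6 libraries, 3 per group, was used as the gene-level TPM that the authors deposited for 57180 genes, 1 column per library, each summing to about 1000000. The submitters' processing notes list Bowtie 0.12.2 and the build mm8 and do not say what either did. How reads were counted, and on which annotation, is not given here. Coordinates come from GENCODE M21 (GRCm38), which holds 90.7% of the gene identifiers; the build used for the table is not known. TPM keeps no read count, so the depth is unknown and no counting interval is given.

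Groups and replicate numbers come from the sample titles. The test was that of limma 3.58.1 (R 4.3.3; two-sided, with a mean-variance trend) on log2(TPM + 1), over genes with a mean of at least 1 TPM, with Benjamini-Hochberg adjustment over all genes tested and a threshold of 0.05. Fold changes on this scale understate the change of low genes. The fit was also run on simulated data in which few genes were changed, unlike these data, and no result here rests on that run. Ratios were tested with an exact permutation test. Members and lists were chosen with earlier results of these data known; lists are described by counts and medians, without a test. The text names the members and, per related list, up to 3 called genes of largest rise and 3 of largest fall whose groups did not overlap, as well as others said to be chosen after their values were seen, genes at or near 0 and markers of other cell types; a few genes the rule names are not reported here. Alternatives covered the pseudocount, the filter, scaling, variance models, a block for replicate number and the omission of single libraries.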

Additional observations from a re-analysis of the deposited data

How the results depend on the processing

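Over 17 alternatives each (16 for Adgre1 and Arg1, which a mean of at least 5 TPM leaves out), all 9 genes kept their direction and an adjusted p under 0.05; the highest adjusted p was 0.0198, for Arg1. Under that filter 7 members fell, 0 members rose, and 1882 genes of all tested fell, as did 15 other macrophage and monocyte genes, 6 of the CSF1 list, 3 lipid genes, 0 arginine and polyamine genes and 1 of the Arg1 inducers, while 1 complement gene rose. With no filter 6 complement genes and 3 lysosomal genes fell. With quantile normalization 7 lipid genes fell. With scaling to T cell receptor and CD3 genes 5 complement genes rose, 7 lipid genes fell and 2 lysosomal genes fell, and with array weights 5 complement genes rose. The cause was not tested, except that a stricter filter tests fewer genes.

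Leaving out 1 library at a time, the genes called higher ranged from 1970 (without SLC43A2 sgRNA replicate 3) and 1982 (without SLC43A2 sgRNA replicate 1) to 3197, against 3139. Other macrophage and monocyte genes that rose ranged from 2 to 4, complement genes that rose from 2 to 5, lipid genes that fell from 6 to 10 and rose from 2 to 4, lysosomal genes that fell from 2 to 5, and arginine and polyamine genes that fell from 0 to 1. The C1qb to C1qa ratio between groups, 1.11, ranged from 0.893 to 1.32, and the Apoe to C1qa ratio, 1.05, from 0.887 to 1.22; the C1qc to C1qa ratio, 0.683, ranged from 0.429 to 0.883. The C1qb and Apoe ratios turned under 1 without Mock sgRNA or SLC43A2 sgRNA replicate 2 (0.994 and 0.893, 0.960 and 0.887).

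Libraries with the same replicate number did not deviate together (correlations 0.0011, 0.061 and -0.031). With a replicate block 8 members fell and 1 rose, as without it, and 3319 genes rose and 3038 fell; Csf1 and C2 lost their calls (adjusted p = 0.0521 and 0.0605). Of 905 other fits of the 54 genes followed, 37 lost a call and 0 changed direction.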
